A study of Mus musculus with 4 samples.

Results

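RNA of the precursor genes of orexin and melanin-concentrating hormone, peptides of the lateral hypothalamus, was abundant in 1 of 4 tissue samples and far lower in the other 3. Of these and the arcuate feeding peptide genes, 4 were tested between dark-reared and control mice, and none passed. The 6 genes described here encode the peptide precursors Npy, Agrp, Pomc, Cartpt, Hcrt and Pmch. They were taken by name, as every non-control probe whose RefSeq accession belongs to 1 of these genes. All 6 were found, with 7 of the 41174 probes of the array, Cartpt having 2 probes and the others 1 each. Of the 6 genes, 4 (Npy, Pomc, Cartpt and Hcrt) were well above background in the whole of 1 group or both and were tested among 21426 genes. Agrp and Pmch were not, and have values without a test.

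These precursors are cut by proprotein convertases into peptides that govern feeding and wakefulness. In the arcuate nucleus, neurons that make NPY and agouti-related peptide promote feeding, while neurons that make proopiomelanocortin and CART restrain it. Agouti-related peptide blocks the melanocortin receptors that the proopiomelanocortin product alpha-MSH activates. In the lateral hypothalamus, separate neurons make the orexins from Hcrt, which sustain wakefulness, and melanin-concentrating hormone from Pmch, which is tied to feeding and sleep. Several of these genes are also expressed outside the hypothalamus: Npy in interneurons of striatum and cortex, Cartpt in several brain regions and Pomc in the pituitary.

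RNA came from mouse tissue holding thalamus and hypothalamus at 14 days of age, and the study asked how this tissue responds to the loss of visual input. Dark-reared pups were born to dams that had been moved into a blacked-out cage between 1 and 4 days before birth, were handled in dim red light and stayed in the dark until sampling. Control pups lived in standard cages with 12 hours of light a day. The labels name no strain, sex, genotype or number of animals per sample. Each group had 2 samples described as biological replicates, each on its own one-colour Agilent array. With 2 against 2, the smallest p of an exact permutation test is 0.333 (two-sided). Unless said otherwise, a value is the log2 of a signal over its array's 75th percentile, so that 0 is the level of a well expressed gene. Where 4 values are listed in array order, they belong to dark-reared 1, then dark-reared 2, then control 1, then control 2. They compare arrays for 1 probe, and the level of 1 probe is not set against that of another.

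Markers of brain regions differed between samples of the same group. On each array 65.9% to 73.3% of probes were well above background, and no spot was saturated. On average, markers of the hypothalamus were lowest in dark-reared 1, as were 4 of the 6 tested genes singly. The 6 deviated from their own means by -1.12, 0.41, 0.60 and 0.11 on average, in array order. Summed over these genes, the signal relative to the 75th percentile was 3.15 and 14.0 in the dark-reared samples and 16.5 and 9.31 in the controls. Of 15 listed hypothalamus markers, 13 had a named probe, and Sim1, Otp and Bsx were not well above background on any array. Resp18, which encodes a protein of secretory granules, was at 0.47, 2.82, 3.15 and 2.12 in array order. Irs4 was instead lowest in dark-reared 2, at -2.94. Nkx2-4 was lowest in control 2, at -3.34, and between -3.09 and -3.05 elsewhere. Striatum markers, of a region outside the labelled tissue, were high in dark-reared 1 (0.95) and control 2 (0.66) and low in dark-reared 2 (-0.94) and control 1 (-0.67). Their summed signals were 105.8 and 29.6 in the dark-reared samples and 34.8 and 85.4 in the controls, and all 8 were well above background on every array. Xist and the Y-linked Ddx3y also split the samples: Xist was at 3.42, -5.81, 3.79 and -6.48 in array order and Ddx3y at -0.32, 1.07, -6.54 and 1.18. Control 1 had Xist well above background without Ddx3y, and dark-reared 2 and control 2 had Ddx3y without Xist. Dark-reared 1 had both. In RNA from whole tissue, fewer cells of a type and less RNA per cell cannot be told apart.

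Hcrt, the orexin precursor gene (NM_010410), was at 2.15 in control 1, against -3.65 in the other control and -3.16 and -2.13 in the dark-reared samples. Before scaling, its signal was 3462 ± 346 (scanner software error of 1 spot) in control 1 and 61.0 ± 9.90 in control 2, with 88.6 ± 10.2 and 177 ± 18.3 in dark-reared 1 and 2. The probe was well above background on all 4 arrays. Control 1 thus exceeded the other control 55.4-fold, and dark-reared 2, the next lower sample, 19.4-fold. The 2 dark-reared samples lay between the controls, 2.04-fold apart.

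Pmch, the precursor gene of melanin-concentrating hormone (NM_029971), had the same high sample with a wider gap. It was at -5.74, -4.47, 2.69 and -6.65 in array order. Before scaling, its signal was 5042 ± 504 (scanner software error) in control 1 and 7.63 ± 7.63 in control 2, with 14.8 ± 5.10 and 35.0 ± 6.28 in the dark-reared pair. It was well above background on 1 array of each group, control 1 and dark-reared 2, so the values of the other arrays carry no reliable size. Control 1 exceeded dark-reared 2, the next lower sample and the only other one with a measured level, 142-fold. Both lateral hypothalamic genes had the same order of samples, control 1 first, then dark-reared 2, dark-reared 1 and control 2. In that order the last pair did not differ by more than 2 combined scanner errors for either gene.

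**Figure D1:**
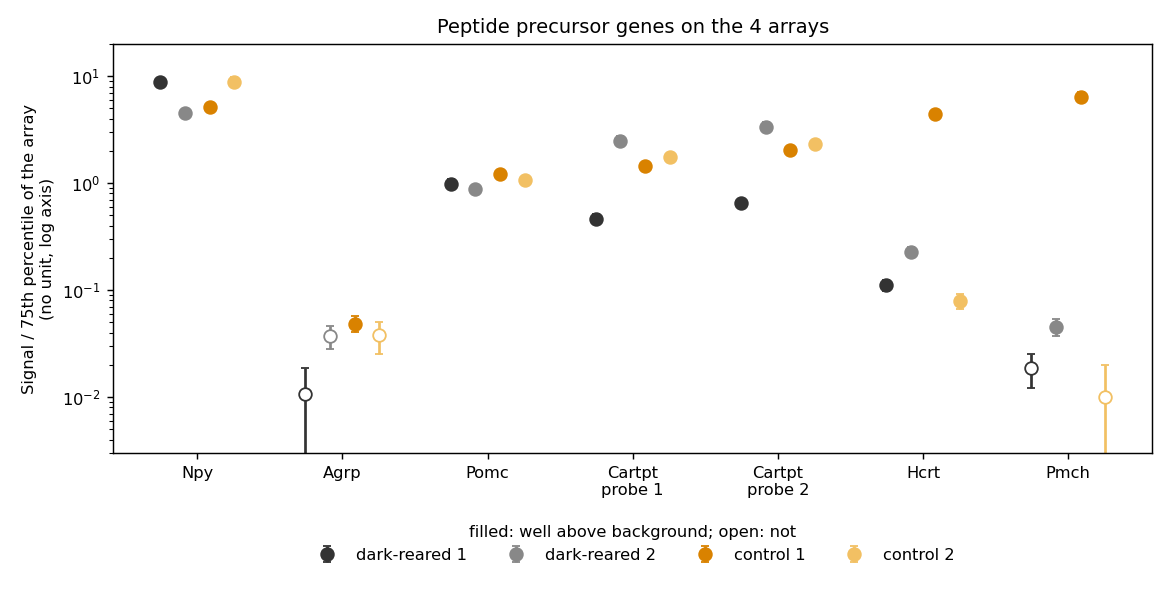
Signal of each probe of the 6 peptide genes on each array, divided by the 75th percentile of that array (log axis, no unit). Points are single arrays and bars the scanner software's error of the spot; open points are not well above background. Hcrt and Pmch stand high in control 1 alone, and both Cartpt probes are lowest in dark-reared 1; the bars of Pmch in control 2 and Agrp in dark-reared 1 run below the axis.

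Neither gene differed between rearing conditions beyond this spread. The mean of Hcrt was -2.65 ± 0.73 (SD, n = 2) after dark rearing and -0.75 ± 4.10 (SD, n = 2) in controls. These overlapping groups differed by -1.90 (standard error 2.10), for which limma gave an unadjusted p of 0.417 and a Benjamini-Hochberg adjusted p of 1.00. The sign for Hcrt rested on control 1: without it, the difference was 1.00, toward higher values in dark-reared samples. For Pmch the means were -5.10 ± 0.90 (SD, n = 2) after dark rearing and -1.98 ± 6.60 (SD, n = 2) in controls, so the overlapping groups differed by -3.13. In each group 1 value of Pmch was not well above background, so neither this size nor any difference of Pmch that leaves out control 1 is measured. When dim probes were kept, Pmch had an adjusted p of 1.00 in limma. One slide held a sample of each group, dark-reared 2 and control 2, and within it Hcrt was 1.51 higher in the dark-reared sample; 6.36% of tested genes differed at least 2-fold there.

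Of 21426 genes tested, 2 had a larger gap between the controls than Hcrt, the Y-linked Ddx3y and Eif2s3y. Eif2s3y was at -6.00 in control 1 and 0.83 in control 2. Of the tested genes, 0 had a gap as large as Pmch, which was not itself tested and was not well above background in control 2. The filter that left out Pmch also left out Xist, whose values of 3.79 in control 1 and -6.48 in control 2 lay further apart. Xist was not well above background in control 2 either. A 2-fold gap between the controls was seen for 4.82% of tested genes. In control 1, 3 tested genes were at least 8-fold above every other sample, a threshold chosen after the values were seen: Hcrt, Rab37, a small GTPase gene at -0.33 in control 1 and between -4.89 and -4.06 elsewhere, and a probe without a symbol. Thalamus markers were also highest in control 1, 9 of the 10 tested, with mean deviations of -1.02, 0.19, 1.27 and -0.44 in array order. Control 1 was also the only sample with Xist but not Ddx3y well above background. It was the only sample on its slide, as dark-reared 1 was on another. Sex and slide therefore cannot be told apart from the other differences of control 1. The parts of this regional difference, of sex and of slide in the Hcrt and Pmch values were not tested.

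**Figure D2:**
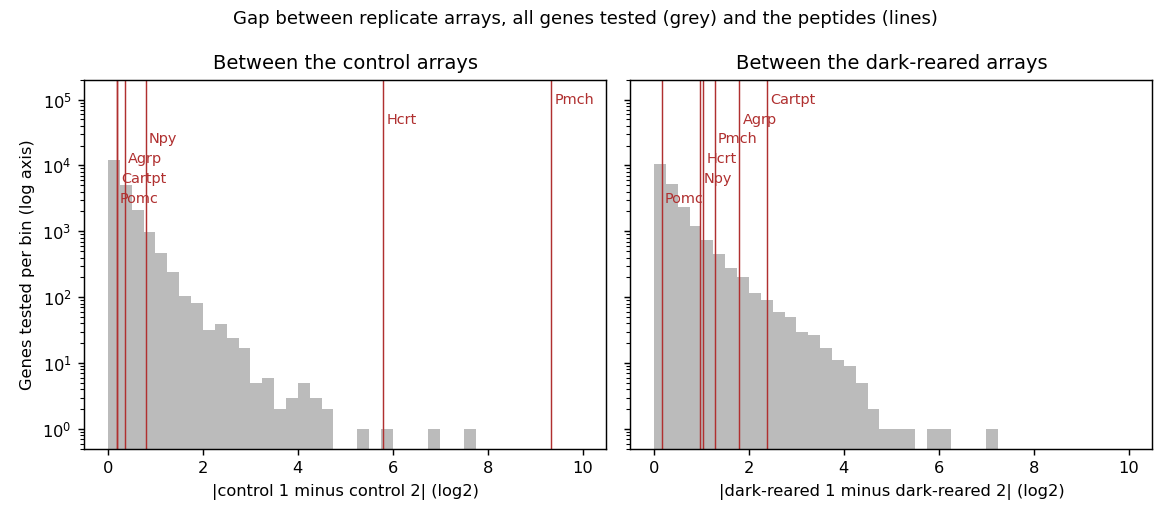
Absolute log2 gap between the 2 control arrays (left) and the 2 dark-reared arrays (right) for all genes tested (grey bars, log axis) and for the 6 peptide genes (red lines, Cartpt by its brighter probe). Hcrt at 5.79 and Pmch at 9.33 lie at the far right between controls, and Cartpt at 2.38 is the widest of the 6 between dark-reared samples.

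The genes most similar to Hcrt across the 4 arrays were sought by the root mean square difference of log2 values, each gene centred on its own mean, among genes with a symbol that were well above background on every array. They were the thalamic protein kinase gene Prkcd, the VIP receptor gene Vipr2 and the receptor activity modifier gene Ramp3, at distances of 1.30, 1.32 and 1.33. Hcrt itself had a root mean square deviation of 2.29 from its mean, so even these profiles were far from its own. For Pmch the closest was Hcrt, at 1.40, followed by Trh, the thyrotropin-releasing hormone precursor gene, at 2.62. Trh was at 0.32 in control 1, -1.33 in dark-reared 2, -1.98 in control 2 and -3.78 in dark-reared 1, and so peaked in the same sample. Among the 6 peptides, the distances of Hcrt to Npy, Agrp, Pomc and Cartpt ran from 1.98 to 2.59, above the 1.40 to Pmch. All distances of Pmch and Agrp include arrays where these genes were not well above background, so they carry no reliable size.

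Because Hcrt and Pmch peaked together, the 250 bases before the start site of each gene are shown from the RefSeq promoter table (build GRCm38.p6). The Hcrt stretch is chr11:100762932-100763181 on the minus strand and the Pmch stretch chr10:88090822-88091071 on the plus strand, both written 5′ to 3′ along the gene. Capitals mark the letters TATAA, the core of a TATA box.
Hcrt: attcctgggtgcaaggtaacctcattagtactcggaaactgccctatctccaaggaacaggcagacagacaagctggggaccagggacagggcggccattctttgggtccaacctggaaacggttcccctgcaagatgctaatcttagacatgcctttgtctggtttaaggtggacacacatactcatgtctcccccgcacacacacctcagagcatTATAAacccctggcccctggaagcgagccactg
Pmch: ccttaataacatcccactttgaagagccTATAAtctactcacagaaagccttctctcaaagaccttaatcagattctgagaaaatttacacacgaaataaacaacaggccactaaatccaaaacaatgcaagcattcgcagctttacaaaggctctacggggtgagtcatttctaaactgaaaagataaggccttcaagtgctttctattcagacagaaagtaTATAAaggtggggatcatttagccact
The motif nearest the gene began 33 bases before the start site in Hcrt and 27 in Pmch, and Pmch had a further copy at 222. Of the 6 peptide genes 5 were in the table, and Pomc held the same letters 25 bases before its start, while Npy and Cartpt had none in this window. On either strand TATAA was found in 22.8% of 32851 such windows; its reverse complement, TTATA, overlaps it in Hcrt. Cartpt alone of the 5 held the cAMP response element TGACGTCA, 112 bases before its start, as did 1.55% of all windows. These are letter matches and not measured binding sites.

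Npy, the precursor gene of neuropeptide Y (NM_023456), followed a different division of the samples. It was at 3.14 in dark-reared 1 and 2.17 in dark-reared 2, and at 2.36 in control 1 and 3.15 in control 2. The high pair, dark-reared 1 and control 2, came from opposite groups and differed 1.01-fold; the low pair, control 1 and dark-reared 2, differed 1.14-fold. Neither of these steps exceeded 2 combined scanner errors, whereas the step of 1.72-fold between the pairs did. The means, 2.66 ± 0.68 (SD, n = 2) after dark rearing and 2.76 ± 0.56 (SD, n = 2) in controls, differed by -0.10 (limma, standard error 0.47, adjusted p = 1.00). That sign was not stable: leaving out dark-reared 2 gave 0.38 and leaving out control 2 gave 0.30, while within the shared slide it was -0.98.

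The division of Npy was that of the striatum markers. In 7 of 8 of them dark-reared 1 was the highest sample and in 7 of 8 dark-reared 2 the lowest. Drd1, a dopamine receptor gene of striatal projection neurons, was at 2.73, 1.35, 1.17 and 2.54 in array order. The nearest profiles to Npy were those of Wfdc18 (distance 0.02), of the calcineurin subunit gene Ppp3ca (0.03) and of the orphan receptor gene Gpr83 (0.03 as well), the last at 4.46, 3.50, 3.61 and 4.48 in the same order. Forebrain interneuron markers had mean deviations of -0.05, 0.01, -0.13 and 0.17 in array order, and Lhx6, a transcription factor gene of interneurons, was at 0.04, 1.24, -0.45 and 0.75. Single genes of this list differed. Nos1, at -3.50, -3.90, -3.91 and -3.22, and Dlx6, at -1.06, -1.30, -1.91 and -1.10, had the division of Npy. The other genes of the list did not, and Nos1 and Dlx6 were picked after their values were seen. The part of striatal RNA in the Npy values was not tested.

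Agrp, which is made by the same arcuate neurons as Npy (NM_007427), was barely detected. Its signal was 38.0 ± 6.53 in control 1, where alone it was well above background, 29.0 ± 9.72 in control 2, 28.8 ± 6.79 in dark-reared 2 and 8.52 ± 6.44 in dark-reared 1 (scanner software errors). On the log2 scale these are -4.36, -4.72, -4.75 and -6.54. Both controls lay above both dark-reared samples, but control 2 and dark-reared 2 differed 1.02-fold. The means were -5.65 ± 1.27 and -4.54 ± 0.25 (SD, n = 2 each), and no bound on the fold could be set because control 2 was not well above background either. The difference of -1.10 shrank to -0.25 with the normexp background correction and to -0.21 without dark-reared 1. Kept in the test without the filter on dim probes, Agrp had an adjusted p of 1.00 in limma (0.179 before adjustment). It did not share the high values of Npy in dark-reared 1. The distance between both genes' profiles, 1.17, includes arrays where Agrp was not well above background.

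Pomc (NM_008895), the precursor gene of alpha-MSH, ACTH and beta-endorphin, was the most even of the 6. It was at -0.02 and -0.18 in dark-reared 1 and 2 and at 0.28 and 0.09 in control 1 and 2. Both dark-reared samples lay below both controls, as was so for 9.57% of all tested genes, and no step between neighbouring samples exceeded 2 combined scanner errors. The means of -0.10 ± 0.12 (SD, n = 2) and 0.18 ± 0.13 (SD, n = 2) differed by -0.29, or 1.22-fold. The standard error was 0.16 and the limma p 0.156 before adjustment, 1.00 after it. The difference was -0.28 within the shared slide and between -0.38 and -0.19 with each array left out in turn.

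The range of Pomc over the samples was close to that of an average gene. Of all tested genes, 45.7% had a wider range over the 4 arrays than the 0.46 of Pomc, against 2.17% for the brighter Cartpt probe and 0.0233% for Hcrt. Among 11 pituitary markers 10 had a named probe and 5 were tested, none past the test. Their median difference was -0.53, against -0.13 over those well above background on all arrays, since Gh and Ghrhr were kept only through the controls. Their summed signal relative to the 75th percentile was 0.73 and 0.96 in dark-reared samples and 0.81 and 1.20 in controls. Tbx19, a transcription factor gene of pituitary Pomc cells, did not rise well above background anywhere, nor did Prl, Tshb and Gnrhr. Cga, the glycoprotein hormone alpha subunit gene, differed by -0.0039. Pax7, of the intermediate lobe, was well above background on 2 arrays. The part of pituitary RNA in the Pomc values was not tested. The nearest profiles to Pomc belonged to Pacsin2, Mrpl49 and Hey2, at distances of 0.01 to 0.02.

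Cartpt, which encodes the CART peptide precursor (NM_013732), was low in dark-reared 1. On its brighter probe it was at -0.63, 1.76, 1.02 and 1.22 in array order. The second probe gave -1.11, 1.32, 0.53 and 0.81, and its difference between groups, -0.56, matched the -0.55 of the first to within 0.01. Dark-reared 2 was the highest sample and dark-reared 1 the lowest on both probes, 5.22-fold apart on the brighter and 5.39-fold on the other. The controls differed by 1.15-fold and 1.21-fold, less than 2 combined scanner errors.

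The group means of Cartpt hid opposite values. They were 0.57 ± 1.69 (SD, n = 2) after dark rearing and 1.12 ± 0.14 (SD, n = 2) in controls and differed by -0.55 (limma, standard error 0.86, adjusted p = 1.00). Leaving out dark-reared 1 turned this to 0.64, and leaving out dark-reared 2 gave -1.74. Of all tested genes, 1.19% had a wider gap between the dark-reared samples than the brighter probe of Cartpt, and 9.78% had a gap of at least 2-fold. Dark-reared 1 was likewise the lowest sample for 4 of the 6 tested hypothalamus markers, and for Agrp, which was not well above background there. It was also lowest for 5 of the 10 tested thalamus markers and 4 of the 5 tested pituitary markers, against 0 of the 8 striatum markers. Of the pituitary markers, Gh and Ghrhr were not well above background there. The calcitonin receptor gene Calcr, with the lowest difference among the hypothalamus markers, was at -3.85, 0.47, 0.76 and -0.59 in array order. The part of what lowered these markers in the Cartpt and Agrp values was not tested. The nearest profiles to Cartpt were those of Mpzl2, Greb1l and Cdh4 (distances 0.05, 0.12 and 0.13), and the nearest to Agrp those of Nog, Plet1 and Rab43 (0.14 to 0.16). Agrp was well above background in control 1 alone, so its nearest profiles rest on values without a reliable size.

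**Figure D3:**
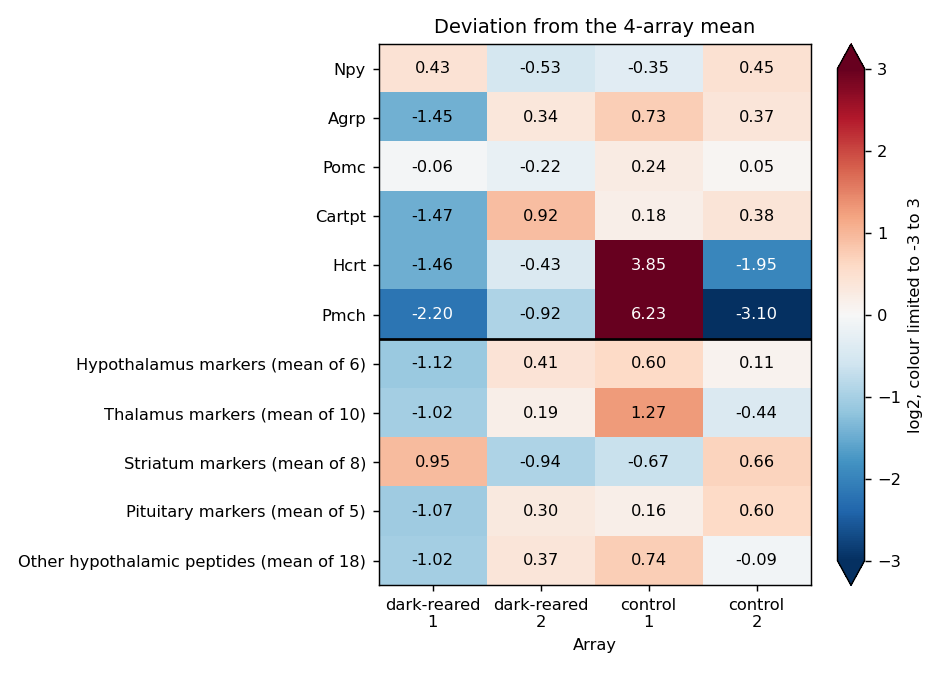
Deviation of each array from the 4-array mean (log2, colour limited to -3 to 3) for the 6 peptide genes, above the line, and for the mean of marker and peptide lists, below it. Agrp, Cartpt and the mean of the hypothalamus markers are low in dark-reared 1, as are the means of thalamus markers, pituitary markers and other hypothalamic peptides. Npy has the signs of the striatum markers, and Hcrt and Pmch have their peak in control 1.

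Across rearing conditions, 0 of 21426 genes (0%) passed limma at an adjusted p under 0.05, and 267 (1.25%) had an unadjusted p under 0.05. None of the 4 tested peptide genes was in either count. Groups did not overlap for 19.1% of tested genes, 9.57% with dark-reared samples lower and 9.53% with them higher; among the 4 tested peptides this held for Pomc alone. A difference of at least 2-fold without overlap was found for 1.2% of tested genes, 92 (0.429%) higher and 165 (0.77%) lower in dark-reared samples (4 and 19 with normexp), and for none of the 4. All 4 tested peptides had a lower mean in dark-reared samples, as did 11106 of the 21426 genes. That sign held for Pomc in every fit that left out 1 array, and turned for Npy, Cartpt and Hcrt in at least 1 of them. For Agrp and Pmch, with 3 and 2 arrays not well above background, no direction was measured.

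**Figure D4:**
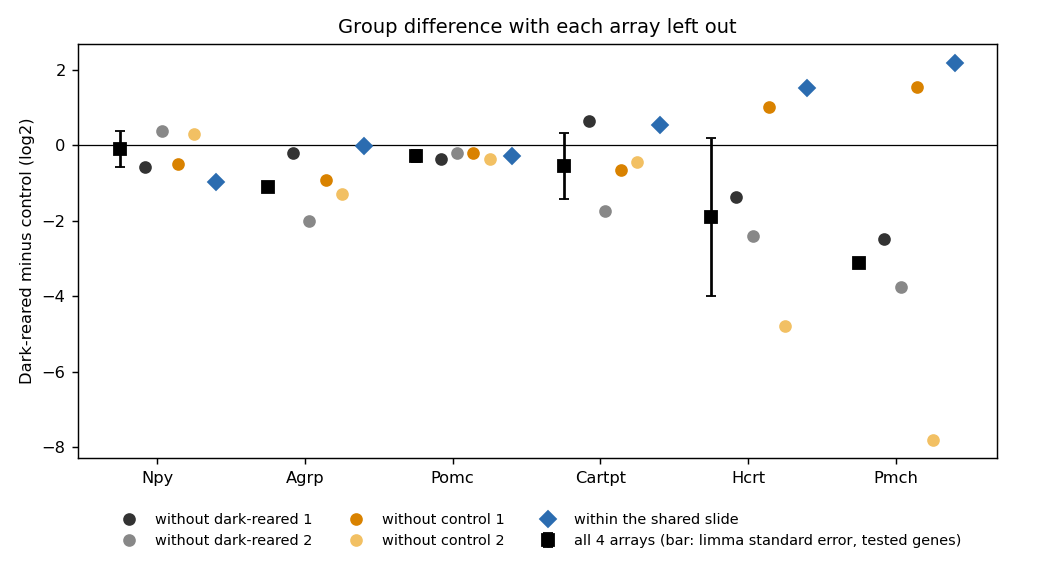
Difference between dark-reared and control samples (log2) for the 6 genes with all 4 arrays (black squares, bars the limma standard error for the 4 tested genes), with each array left out (circles) and within the slide that held both groups (blue diamonds). Pomc stays between -0.38 and -0.19, whereas Npy, Cartpt and Hcrt have points on both sides of 0; the points of Agrp and Pmch include values not well above background.

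Receptors of these peptides showed no common direction. Of 10 listed, 9 had a named probe and 8 were tested. In dark-reared samples 4 were higher and 4 lower, with a median of 0.06 against -0.01 for all genes tested, and 0 passed. The median was 0.64 within the shared slide, 0.57 without dark-reared 1 and -0.12 without dark-reared 2. Mc4r, the melanocortin receptor on which alpha-MSH and agouti-related peptide compete, was at -3.80 and -2.48 in dark-reared samples and -2.09 and -1.85 in controls, and differed by -1.17 (limma, standard error 0.50, adjusted p = 1.00). Hcrtr1, an orexin receptor gene, was at -2.81, -0.83, -1.44 and -1.97 in array order, without the peak of its ligand gene in control 1. Hcrtr2 was well above background on 1 array only. Mchr1, the receptor for melanin-concentrating hormone, differed by -0.02 and lay between -2.32 and -1.65 in all samples. Npy6r, an NPY receptor gene, was well above background on 3 arrays and not in control 2, so the size of its difference is not measured. Mc4r and Npy6r were the 2 of 8 tested receptors at least 2-fold apart without overlap, as were 1.2% of all tested genes. Over receptor genes well above background on all arrays the median was -0.02.

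Genes through which hormones and energy state reach these neurons gave no call. Of 10 listed, 8 were tested, 6 higher and 2 lower with a median of 0.09, and 0 passed. The leptin receptor gene Lepr did not rise well above background anywhere. Ghsr, the ghrelin receptor of NPY and agouti-related peptide neurons, had the lowest difference, -1.49, with -3.68 and -3.95 in dark-reared samples and -2.46 and -2.18 in controls. Its limma p was 0.0016 before adjustment (standard error 0.19) and 1.00 after it, and within the shared slide it differed by -1.76. Ghsr was thus among the 1.25% of tested genes with an unadjusted p under 0.05. It was also among the 1.2% at least 2-fold apart without overlap. Socs3, an inhibitor of leptin signalling, had the highest, 0.25. Of 7 listed family members and cofactors 4 were tested, from Pyy at -0.22 to the peptidase gene Dpp4 at 0.13, and 0 passed.

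The machinery that turns these precursors into peptides gave no call either. All 11 listed genes were tested, 3 higher and 8 lower with a median of -0.09, and 0 passed. The convertase gene Pcsk1 was at -2.24, -1.20, -0.99 and -1.62 in array order, and Pcsk2 at 4.61, 3.94, 4.29 and 4.41. Scg2, a granin gene, had the lowest difference of the list, -0.43, and Scg3 the highest, 0.13.

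Other genes of hypothalamic peptides were often highest in control 1, as were 9 of the 10 tested thalamus markers. The share of all tested genes highest there was not counted, and their mean deviation there was 0.02. Of 29 listed peptide genes, 23 had a named probe and 18 were tested, with a mean deviation of 0.74 in control 1. Of the 18, 10 were highest in control 1, 4 in dark-reared 2, 4 in control 2 and 0 in dark-reared 1, and 8 were lowest in dark-reared 1. Their median difference was -0.36, with 14 lower and 4 higher, against 0.19 within the shared slide, and 0 passed. Oxt, which encodes oxytocin, and Avp, which encodes vasopressin, were low in dark-reared 1 (-3.31 and -3.61) and measured at 2.38 and 1.18 in control 2, where Hcrt and Pmch were lowest. Both were at higher values in control 1, 3.97 and 3.91, and in dark-reared 2 they were at 2.50 and 3.54. Grp, the gastrin-releasing peptide gene, had the highest difference of the list, 0.47.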

How the data were processed

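Each scanner file holds the spot intensities of 1 array and, per the file headers, comes from version 10.7.3.1 of Agilent's Feature Extraction software (mm9 annotation); the processed signal is background-subtracted and not scaled between arrays. A deposited table of log2 values, one per probe, had a median of 6.84 on every array; the sources used here do not give its normalization, and it served as an alternative. Spots called outliers were left out, spots of a probe averaged, and log2 signals set against the 75th percentile over the probes of the array (764 to 794). RefSeq accessions gave 26918 of 41174 probes a symbol (GRCm38.p6 table, used for names and promoters). Probes were kept (28444) where a group had a signal well above background on both arrays, the brightest standing for a gene, leaving 21426 genes. The comparison used limma 3.58.1 and R 4.3.3 (two-sided, Benjamini-Hochberg over all genes, threshold 0.05); the fit was tested on simulated data. Precision is limited by the number of arrays, 4. The labels do not say whether replicates are separate animals. Control 1 had Xist without Ddx3y and control 2 had Ddx3y without Xist, so the controls were not RNA of the same animal. Dark-reared 1 had both and dark-reared 2 had Ddx3y alone, which does not settle this for the dark-reared pair. The p-values measure the spread between samples.

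Named genes are the 6 peptides, the 3 nearest profiles of each, and from each list the genes with the lowest and highest difference, besides Oxt, Avp, Trh, Mc4r, Hcrtr1, Hcrtr2, Mchr1, Pcsk1, Pcsk2, Resp18, Slc17a6, Tbx19, Pax7 and Tbr1; Xist, Ddx3y, Rab37, Lepr, Penk, Foxo1 and other genes not covered were added after their values were seen. One gene that this rule takes is not reported here. Members and lists were chosen with earlier results of these data known. Alternatives were median or quantile scaling, normexp with an offset of 50 on median signals (local backgrounds called outliers, or over 10 times the array median, replaced), the deposited values, other filters, outlier spots kept, probe means, eBayes with trend, a replicate block, the shared slide and each array left out.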

Additional observations from a re-analysis of the deposited data

How the results depend on the processing

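No setting with a test gave a gene past the adjusted threshold. At least 2-fold differences without overlap numbered 257, against 23 with normexp, 810 without the filter on dim probes, 78 with the filter on all arrays, 1363 of at least 2-fold within the shared slide, and 528 to 884 with 1 array left out, where a lone sample is assumed to vary like the other group. Within the shared slide, which has no test, the differences were -0.98 for Npy, -0.030 for Agrp, 0.54 for Cartpt, 1.51 for Hcrt and 2.18 for Pmch. With each array left out they ran from -0.58 to 0.38 for Npy, -2.001 to -0.21 for Agrp, -0.38 to -0.19 for Pomc, -1.74 to 0.64 for Cartpt, -4.79 to 1.00 for Hcrt and -7.79 to 1.54 for Pmch; the lowest adjusted p among them was 0.502, for Cartpt without dark-reared 2. Scaling, background, filter and probe choices turned no sign of the 6 genes. Values of Agrp and Pmch here include arrays where they were not well above background, so their sizes and signs are not measured. With the replicate number as a block 0 genes passed in limma (271 at an unadjusted p under 0.05, against 267), and with crossed numbers, added because deviations of same-numbered samples correlated at -0.16, 0 passed as well (433 at an unadjusted p under 0.05); the samples share only a number. Of 182 list medians recomputed, 17 moved by more than the spread between replicates. Signal over background limits Agrp on 3 arrays and Pmch on 2.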

Other observations

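The division of Npy, with dark-reared 1 and control 2 above dark-reared 2 and control 1, was also that of Penk, the enkephalin precursor gene, at 7.55, 6.06, 6.26 and 7.56 in array order (dark-reared, then control), and of Foxo1, a transcription factor gene of insulin signalling, at 3.83, 2.39, 2.50 and 3.57. Both were picked after their values were seen. Hmx3 and Hmx2, homeobox genes of the ventral hypothalamus, were detected in part of the samples. Hmx3 was at -7.26, -2.003, -1.14 and -4.51 in the same order and Hmx2 at -6.95, -3.68, -2.96 and -6.76. Each was well above background on dark-reared 2 and control 1 alone. Other homeobox genes listed as hypothalamus markers differed from them. Nkx2-1 was at -2.45, -1.43, -2.16 and -1.77 and Nkx2-4 at -3.08, -3.09, -3.05 and -3.34, both well above background on every array. Otp and Bsx were not well above background on any array. All 6 choroid plexus markers were lowest in control 2, with Ttr at -1.77 there and 1.58 to 2.65 elsewhere; their differences ran from 0.71 for Clic6 to 1.74 for Ttr.

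Among hypothalamus markers Nkx2-4 had the highest difference, 0.11. The remaining marker lists gave 0 genes past the adjusted threshold in limma. All 10 tested thalamus markers had a lower mean in dark-reared samples (median -0.79), but the median was 0.08 without control 1, -1.82 without control 2 and 0.52 within the shared slide; the differences ran from Slc17a6, the glutamate transporter of thalamic neurons, at -1.55 to Gbx2 at -0.26. Cortex and hippocampus markers had a median of 0.51, with Tbr1 at 1.09, but the median was 1.19 without control 1 and -0.35 without control 2. Prox1, with the lowest difference, was not well above background in dark-reared 1. Forebrain interneuron markers had a median of 0.34 (-0.10 without control 1), Pvalb at -2.37 being the lowest and Lhx6 at 0.49 the highest. Midbrain markers had a median of -0.40, from Pitx3 at -0.79 to Foxa1 at 0.04, and striatum markers one of 0.03, from Drd2 at -0.16 to Drd1 at 0.19.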
